A study of Mus musculus with 12 samples.

Results

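The genes described here encode 10 integrin subunits, the alpha subunits Itgav, Itga4, Itga5, Itgam, Itgax and Itgal and the beta subunits Itgb1, Itgb2, Itgb3 and Itgb5. They were matched by mouse gene symbol to the 54532 Ensembl genes of the expression table, where each symbol named 1 gene. All 10 were among the 11335 genes that passed the filter on low values, which asked for at least 1 FPKM (fragments per kilobase of gene, scaled per library) in at least 3 of the 12 libraries. Itgb3 passed through its osteoclast libraries, since 2 of its 6 macrophage libraries reached 1 FPKM. RNA was sequenced from bone marrow derived macrophages and from osteoclasts, the bone-resorbing cells that form by fusion of macrophage precursors, with 3 libraries in each of 4 groups. The mice were WT, and all groups were grown with CMG, a source of the growth factor M-CSF (macrophage colony-stimulating factor). Macrophages received no RANKL, while osteoclasts received this differentiation factor, labelled as 100 ng/mL for the cells and given as a range in the protocol. Each cell type was left untreated or was given lipopolysaccharide (LPS, from the outer membrane of Gram-negative bacteria) for 3 h on day 5, at a dose of 100 ng/mL. Mouse strain, sex and age are not named in the labels. The labels also do not say whether the libraries of a group came from separate mice or cultures, so the p-values measure the spread between these libraries, which may be technical. No sort of the osteoclast cultures is described, and in such bulk RNA fewer cells of a type and less RNA per cell cannot be told apart.

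Integrins are receptors that join an alpha and a beta subunit and tie the cytoskeleton to matrix proteins or to receptors on other cells. The beta subunit reaches talin and kindlin inside the cell, while the pair decides the ligand. The αvβ3 integrin is the vitronectin and osteopontin receptor of osteoclasts and sits in their podosomes, the actin structures that seal the cell to bone. The αvβ5 integrin is the related receptor of precursors and macrophages. The β2 integrins (Itgb2 with Itgal, Itgam or Itgax) are leukocyte receptors for ICAM-1 and complement C3 fragments, and the β1 integrins with α4 or α5 bind VCAM-1 and fibronectin.

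The libraries held 15651766 to 20281456 reads assigned to genes, recovered from the steps of the FPKM values, and 9728 to 10301 genes at 1 FPKM or more. The 8 osteoclast markers (Ctsk, Acp5, Mmp9, Calcr, Dcstamp, Ocstamp, Oscar and Atp6v0d2) summed to 8.26 to 12.2 FPKM in untreated macrophages and to 29579 to 31023 FPKM in untreated osteoclasts. The 6 macrophage markers summed to 1423 to 1440 FPKM in untreated macrophages and to 362 to 368 FPKM in untreated osteoclasts, where Mrc1 (2.57 FPKM) and Cx3cr1 (0.486 FPKM) were near 0 and Csf1r was at 310.2 FPKM. The labels of the 2 cell types thus matched their markers. The T cell markers Cd3d, Cd3g and Cd8a were at 0 in all 12 libraries, but Trac was at 3.73 to 3.96 FPKM in untreated osteoclasts and at 0.0461 to 0.182 FPKM in untreated macrophages. The 5 megakaryocyte and platelet markers summed to 599 to 687 FPKM in untreated macrophages and to 9.46 to 11.02 FPKM in untreated osteoclasts, carried by Pf4 (means 622 and 9.11 FPKM). Ppbp (5.86 and 0.0334 FPKM) and Itga2b (0.0713 and 0.0246 FPKM) differed in the same direction. Gp1ba (0.562 and 1.005 FPKM) and Gp9 (0.0333 and 0.0445 FPKM) differed in the other. The part of such cells in the integrin levels was not tested. Of the lists for other cells, 2 of 5 dendritic cell, 3 of 8 neutrophil, 1 of 6 T cell, 3 of 5 megakaryocyte, 3 of 6 stromal and 1 of 4 osteoblast markers reached 1 FPKM in a library. The neutrophil markers summed to 5.62 to 8.04 FPKM in untreated macrophages and 0.247 to 0.699 FPKM in untreated osteoclasts. With LPS these sums were 6.88 to 16.4 and 0.569 to 1.88 FPKM. They were carried by S100a8, S100a9 and Ngp, while Ly6g, Elane and Mpo were near 0. The part of neutrophils in the integrin levels was not tested. Mitochondrial genes took 1.27% to 1.62% of the reads in macrophages and 5.16% to 6.18% in osteoclasts. The deposited scale sets the typical gene to no change, and rescaling each library to TPM (the same sum in each) took the median over the genes tested to -0.555 for LPS in macrophages and to -0.379 for the untreated cell types. Directions below are relative to the typical gene unless a scaling is named.

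Untreated osteoclasts differed from untreated macrophages at 9 of the 10 integrin genes, by limma on log2(FPKM + 1) with p-values adjusted over all genes tested (called under 0.05). Itgb3, Itgav, Itgax, Itgb1 and Itgb2 were called higher in osteoclasts, although Itgb2 turned direction under TPM and quantile normalization. Itgb5, Itgal, Itgam and Itga5 were called lower, and Itga4 was not called. Of all genes tested, 77.8% were called in this comparison, 38.8% higher and 39.0% lower, so a count of 9 called genes is close to what the table as a whole showed. That count includes Itgb3, whose difference was set in part by the filter, as does the count with LPS. The libraries of the cell types did not overlap at those 9 genes, as for 81.4% of all genes. The median log2 difference of the 10 genes was 0.20, against 0.00 over all genes. Under TPM 4 were called higher and 5 lower, and under quantile normalization 4 and 4. The sizes of the differences ran from a 91.7-fold higher level of Itgb3 to a 9.83-fold lower level of Itgb5.

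**Figure D1:**
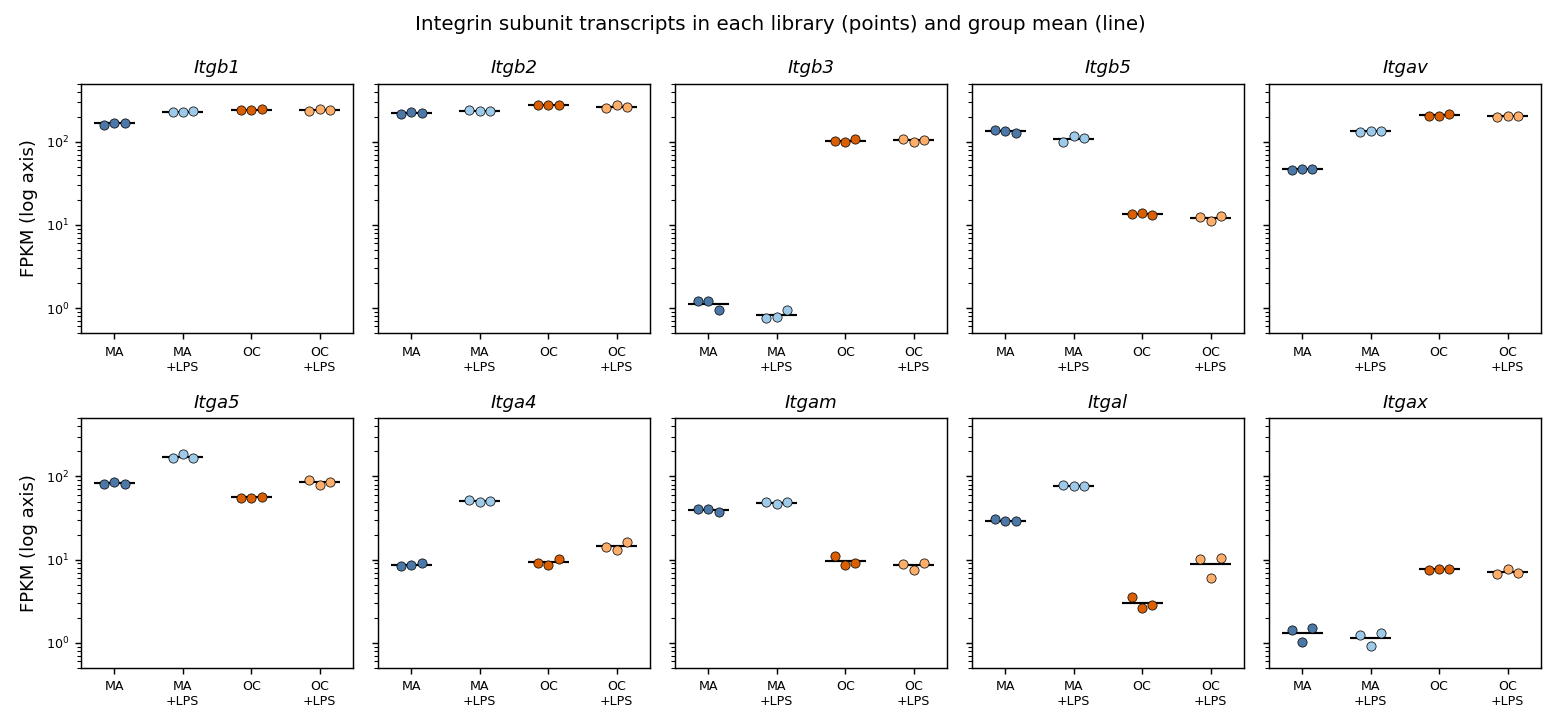
FPKM (log axis) of the 10 integrin subunit genes in each of the 12 libraries, with 1 point per library and a line at the mean of each group (MA, macrophages; OC, osteoclasts; +LPS, 3 h of LPS). Itgb3 lies near 1 FPKM in the 6 macrophage libraries and near 100 FPKM in the 6 osteoclast libraries. Itgb5 differs in the other direction, at 100.1 to 139 FPKM in macrophages and 11.3 to 14.1 FPKM in osteoclasts.

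Itgb3 (ENSMUSG00000020689, GRCm38 chr11:104608000-104670476) encodes the β3 subunit, the osteoclast partner of αv. Its level in untreated macrophages was 1.22, 1.204 and 0.951 FPKM, from 459 reads in all, and in untreated osteoclasts it was 101, 100.4 and 108 FPKM. Every osteoclast library was thus far above every macrophage library. The means were 1.13 ± 0.151 FPKM and 103 ± 4.53 FPKM (SD, n = 3), a 91.7-fold difference (log2 difference 5.62, SE 0.06). After LPS the macrophage libraries stood at 0.757, 0.772 and 0.953 FPKM and the osteoclast libraries at 107.8, 99.9 and 104 FPKM. The cell types were then 126-fold apart (log2 5.84, SE 0.06). Both cell type differences of Itgb3 are given as a description, because the gene passed the filter through osteoclasts. In macrophages the LPS difference of -0.22 (SE 0.06) was called by limma (adjusted p = 0.00809), although the libraries overlapped at 0.951 and 0.953 FPKM. Quantile normalization ended the call (-0.09, adjusted p = 0.225) and TPM gave -0.81. In osteoclasts LPS gave 103 ± 4.53 against 104 ± 3.94 FPKM, with overlapping libraries and a log2 difference of 0.01 (limma adjusted p = 0.93) that turned to -0.06 under TPM and -0.09 under quantile normalization.

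Itgb5 (ENSMUSG00000022817, chr16:33829665-33949338) encodes the β5 subunit, like β1 and β3 a partner of αv. Untreated macrophages held 139, 133 and 129 FPKM and untreated osteoclasts 13.5, 14.1 and 13.3 FPKM. The order of the cell types was the reverse of that of Itgb3, with no overlap. Itgb5 was 9.83-fold lower in osteoclasts without LPS (log2 -3.21, SE 0.06, limma adjusted p = 3.37e-13) and 9.01-fold lower with it (-3.07, adjusted p = 3.68e-13). With LPS the macrophage libraries fell to 100.1, 116 and 110.2 FPKM (log2 -0.30, SE 0.06, limma adjusted p = 6.64e-04), by more under TPM (-0.95) and quantile normalization (-1.15). The osteoclast libraries stood at 12.4, 11.3 and 12.6 FPKM after LPS, each below the untreated ones, but the difference of -0.16 was not called (limma adjusted p = 0.0833). That osteoclast value was called under TPM (-0.24), under quantile normalization (-0.23) and without the first LPS macrophage library (adjusted p = 0.0458). Set against each other, Itgb3 made up 0.832% ± 0.0878 of the summed FPKM of Itgb3 and Itgb5 in untreated macrophages and 88.3% ± 0.708 in untreated osteoclasts (SD, n = 3). The corresponding shares after LPS were 0.756% ± 0.0993 and 89.6% ± 0.348. The shift between the 2 subunits thus appeared in both treatments.

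Itgb1 (ENSMUSG00000025809, chr8:128685654-128733200) and Itgb2 (ENSMUSG00000000290, chr10:77530252-77565708) encode β1 and β2 and were the most abundant of the 4 beta genes in every library. Itgb1 was at 160.1, 168 and 170.2 FPKM in untreated macrophages and at 242, 240.0 and 246 FPKM in untreated osteoclasts, 1.46-fold higher (log2 0.54, SE 0.04, limma adjusted p = 3.75e-08). This difference shrank to 0.13 under TPM and 0.16 under quantile normalization, and was still called. LPS took the macrophage libraries to 227, 231 and 235 FPKM and left the osteoclast libraries at 232, 248 and 239 FPKM. The cell types then overlapped, and their difference of 0.05 was not called (limma adjusted p = 0.201), whereas it was called at 0.21 under TPM and 0.41 under quantile normalization. The rise of Itgb1 in macrophages (0.47, SE 0.04, limma adjusted p = 2.07e-07) turned to -0.17 under TPM and -0.38 under quantile normalization. Itgb2 stood at 213, 228 and 219.5 FPKM in untreated macrophages and at 274, 274 and 273 FPKM in untreated osteoclasts. This 1.24-fold difference (0.31, SE 0.04, limma adjusted p = 9.39e-06) turned to -0.10 under TPM and -0.03 under quantile normalization. With LPS Itgb2 read 241, 236 and 233 FPKM in macrophages and 255, 276 and 263 FPKM in osteoclasts, a log2 difference of 0.16 (limma adjusted p = 0.00189). That difference grew to 0.32 under TPM and 0.50 under quantile normalization. The LPS difference of Itgb2 in macrophages was 0.10 (limma adjusted p = 0.0297), which turned to -0.54 under TPM and -0.74 under quantile normalization. The call was lost without the first or the third untreated or the first or second LPS macrophage library (adjusted p up to 0.113), with no filter (0.0514) and with no variance trend (0.0533). In osteoclasts the LPS difference of Itgb2 was -0.05 (limma adjusted p = 0.429). Quantile normalization gave -0.21, which was called.

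The summed FPKM of the 4 beta genes was 521 ± 7.93 in untreated macrophages, 577 ± 8.11 in macrophages with LPS, 633 ± 6.74 in untreated osteoclasts and 620.3 ± 14.4 in osteoclasts with LPS (SD, n = 3). Within that sum Itgb2 kept a similar place, with 42.2% ± 0.739, 41.0% ± 1.17, 43.2% ± 0.544 and 42.7% ± 0.738 in the same order of groups. Itgb1 took 31.8% ± 0.815 in untreated macrophages and 38.3% ± 0.103 in untreated osteoclasts. Itgb5 took 25.7% ± 1.22 of the sum in untreated macrophages and 2.15% ± 0.0851 in untreated osteoclasts, and Itgb3 took 0.216% ± 0.0290 and 16.3% ± 0.539. The share of Itgb3 in osteoclasts was thus below the share that Itgb5 had in macrophages. These shares compare genes per length and were not tested.

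**Figure D2:**
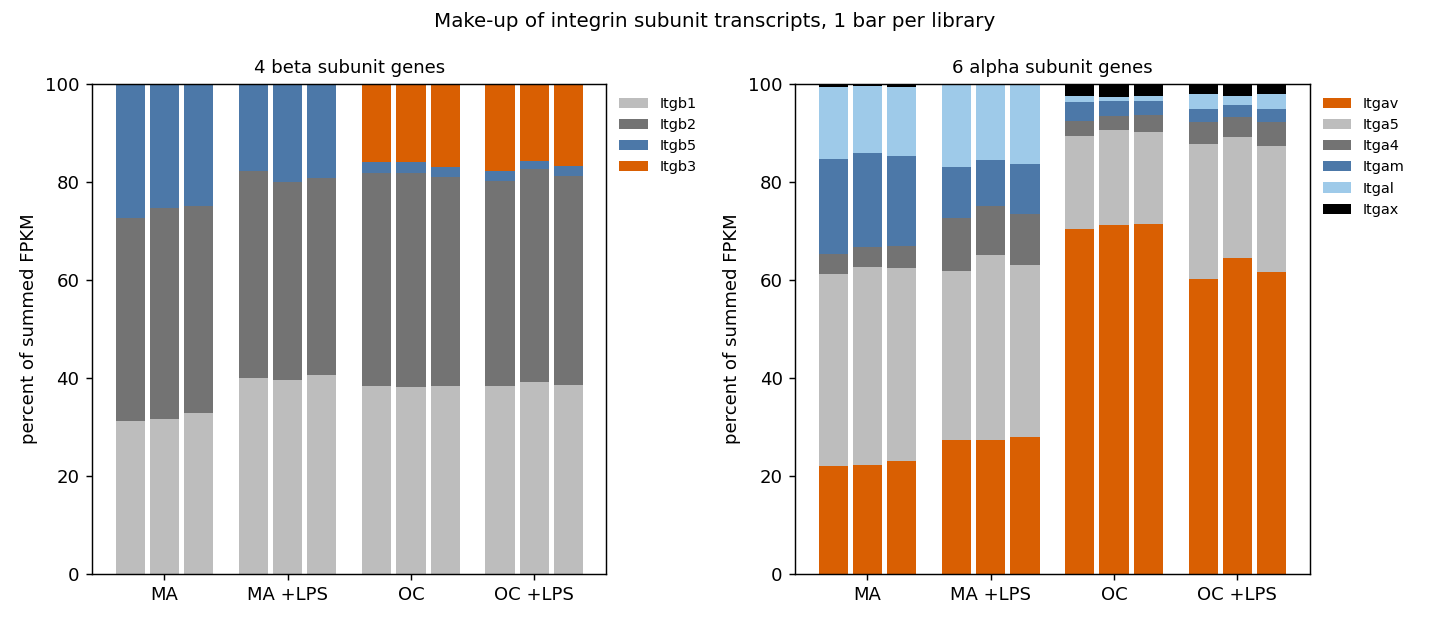
Percent of the summed FPKM taken by each of the 4 beta genes (left) and the 6 alpha genes (right), with 1 bar per library. Among the beta genes Itgb3 takes more than Itgb5 in osteoclasts and less in macrophages. Itgav takes 71.0% of the alpha sum in untreated osteoclasts, against 22.3% in untreated macrophages.

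Itgav (ENSMUSG00000027087, chr2:83724397-83806916) encodes αv, which pairs with β1, β3 or β5. Untreated macrophages held 45.7, 46.6 and 47.2 FPKM and untreated osteoclasts 205.3, 205.3 and 217 FPKM, a 4.50-fold difference (log2 2.15, SE 0.04, limma adjusted p = 1.64e-13). With LPS the macrophage libraries rose 2.86-fold to 130.3, 134.8 and 134.2 FPKM (log2 1.497, SE 0.04, limma adjusted p = 4.09e-12), a rise of 0.87 under TPM and 0.79 under quantile normalization. The osteoclast libraries stood at 197, 204 and 207 FPKM with LPS and overlapped the untreated ones (log2 -0.05, limma adjusted p = 0.417; -0.15 and called under quantile normalization). The macrophages with LPS lay between untreated macrophages and osteoclasts, and the cell types were then 1.52-fold apart (0.60, SE 0.04, limma adjusted p = 7.53e-09). The LPS effects of the cell types differed by -1.54 (SE 0.05, interaction in limma, adjusted p = 2.93e-10; -0.93 under quantile normalization). Among the 6 alpha genes Itgav took 22.3% ± 0.538 of the summed FPKM in untreated macrophages, 27.5% ± 0.350 in macrophages with LPS, 71.0% ± 0.553 in untreated osteoclasts and 62.1% ± 2.13 in osteoclasts with LPS (SD, n = 3). Of the Itgav exon bases, 5.9% lay under an RNA on the opposite strand (Gm13684, at most 1.25 FPKM), and the use of strand in the counting is not given in the sources used here.

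Itga5 (ENSMUSG00000000555, chr15:103344286-103366763) encodes α5, the fibronectin receptor subunit. It read 81.5, 85.4 and 81.1 FPKM in untreated macrophages and 55.3, 55.7 and 57.3 FPKM in untreated osteoclasts, 1.47-fold lower (log2 -0.55, SE 0.06, limma adjusted p = 1.72e-06). This difference was -0.97 under TPM and -0.85 under quantile normalization. LPS took Itga5 to 165, 186 and 169 FPKM in macrophages and to 90.2, 78.7 and 86.1 FPKM in osteoclasts. Both rises were called by limma, 2.10-fold in macrophages (1.06, SE 0.06, adjusted p = 5.29e-09) and 1.51-fold in osteoclasts (0.59, SE 0.06, adjusted p = 1.41e-05). The order of these rises turned with the scaling, to 0.42 in macrophages and 0.52 in osteoclasts under TPM and to 0.22 and 0.46 under quantile normalization. With LPS Itga5 was 2.04-fold lower in osteoclasts (-1.02, SE 0.06, limma adjusted p = 3.56e-09), a difference of -0.87 under TPM and -0.61 under quantile normalization.

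Itga4 (ENSMUSG00000027009, chr2:79255426-79333123) encodes α4, the VCAM-1 receptor subunit, and was the 1 gene of the 10 that the untreated cell types did not separate. Its level was 8.49, 8.55 and 9.14 FPKM in untreated macrophages and 9.16, 8.58 and 10.1 FPKM in untreated osteoclasts, with overlapping libraries. The difference was 0.08 (SE 0.07, limma adjusted p = 0.346) and turned to -0.32 under TPM, where it was called. After LPS Itga4 stood at 51.9, 49.8 and 51.0 FPKM in macrophages, 5.83-fold above the untreated cells (2.42, SE 0.07, limma adjusted p = 3.03e-11). In osteoclasts it reached 14.2, 13 and 16.2 FPKM, 1.56-fold above (0.59, SE 0.07, limma adjusted p = 1.35e-04). Of the 10 genes it had the largest rise in macrophages, and the cell types were 3.52-fold apart after LPS (-1.75, SE 0.07, limma adjusted p = 2.63e-10). The interaction was -1.83 (SE 0.10, limma adjusted p = 2.64e-08). The gene shares 8.04% of its exon bases with Cerkl on the opposite strand, which stayed at or below 0.162 FPKM.

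Itgam, Itgax and Itgal encode αM, αX and αL, which share the β2 subunit. Itgal (ENSMUSG00000030830, chr7:127296260-127335138), Itgam (ENSMUSG00000030786, chr7:128062640-128118491) and Itgax (ENSMUSG00000030789, chr7:128129547-128150657) lie on the same chromosome, and Itgax starts 11055 bases past the end of Itgam. The neighbours Itgam and Itgax differed between the cell types in opposite directions, so the 250 bases before the RefSeq start of each are shown (GRCm38.p6, plus strand, chr7:128062390-128062639 for Itgam and chr7:128129300-128129549 for Itgax). Capitals mark matches on either strand to GAGGAA, a core of the sites of the macrophage factor PU.1, and to TGANTCA, the AP-1 site, and no 2 matches overlap.
Itgam: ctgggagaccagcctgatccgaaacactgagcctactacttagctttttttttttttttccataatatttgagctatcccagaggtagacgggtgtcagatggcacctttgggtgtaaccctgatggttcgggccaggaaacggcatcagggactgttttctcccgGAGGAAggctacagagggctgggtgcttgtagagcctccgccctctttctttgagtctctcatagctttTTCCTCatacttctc
Itgax: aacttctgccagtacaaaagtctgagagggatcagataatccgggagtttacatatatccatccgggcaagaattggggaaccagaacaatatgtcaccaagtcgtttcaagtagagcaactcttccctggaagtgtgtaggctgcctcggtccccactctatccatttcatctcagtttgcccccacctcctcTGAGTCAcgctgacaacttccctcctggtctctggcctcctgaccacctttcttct
The Itgam window held GAGGAA 2 times and no TGANTCA, and the Itgax window held TGANTCA 1 time and no GAGGAA. Of 32851 RefSeq windows of this length, 23.3% held GAGGAA and 6.75% held TGANTCA. Of the other 5 windows at hand, GAGGAA occurred 2 times before Itgav, 1 time each before Itgb1 and Itga5 and not before Itga4 or Itgb5, and TGANTCA in none. GAGGAA was thus found before genes higher and genes lower in osteoclasts. The matches describe these letters and show no binding.

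Itgam stood at 40.5, 40.3 and 37.7 FPKM in untreated macrophages and at 10.96, 8.66 and 9.18 FPKM in untreated osteoclasts, 4.12-fold lower (log2 -1.94, SE 0.08, limma adjusted p = 3.37e-10). With LPS it read 49.9, 46.5 and 48.7 FPKM in macrophages, a called difference of 0.29 (SE 0.08, limma adjusted p = 0.00703) that turned to -0.35 under TPM and -0.33 under quantile normalization. In osteoclasts it read 8.93, 7.58 and 9.01 FPKM with LPS and overlapped the untreated libraries (-0.15, limma adjusted p = 0.217). The cell types were 5.69-fold apart with LPS (-2.38, SE 0.08, limma adjusted p = 3.73e-11). The level of Itgam is uncertain because 68.7% of its exon bases are shared with Gm49368 on the same strand, and that gene was listed at 0.062 FPKM at most.

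Itgax, often used as the dendritic cell marker CD11c, was low in macrophages, at 1.41, 1.01 and 1.51 FPKM, and stood at 7.57, 7.61 and 7.72 FPKM in untreated osteoclasts. The difference was 5.82-fold (log2 1.91, SE 0.09, limma adjusted p = 1.61e-09), and with LPS it was 6.22-fold (1.93, SE 0.09, adjusted p = 1.06e-09). LPS gave 1.22, 0.921 and 1.30 FPKM in macrophages and 6.71, 7.82 and 6.92 FPKM in osteoclasts, and the libraries overlapped in both. Neither LPS difference was called by limma, at -0.10 in macrophages (adjusted p = 0.346, turning to 0.02 under quantile normalization and called at -0.66 under TPM) and at -0.09 in osteoclasts (adjusted p = 0.59). The 5 dendritic cell markers summed to 0.202 to 0.280 FPKM in untreated macrophages and 0.595 to 0.692 FPKM in untreated osteoclasts, below Itgax in both. In LPS macrophages that sum was 5.61 to 6.35 FPKM, above Itgax, and was carried by Xcr1 (mean 5.31 FPKM). There Flt3, Cd209a, Zbtb46 and Ccr7 had means of 0, 0.0282, 0.197 and 0.327 FPKM. The part of dendritic cells in the Itgax levels was not tested.

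Itgal, the αL subunit of LFA-1, differed between the untreated cell types in the opposite direction to Itgax. Untreated macrophages held 30.6, 28.8 and 28.9 FPKM and untreated osteoclasts 3.55, 2.63 and 2.82 FPKM, 9.81-fold lower (log2 -2.93, SE 0.15, limma adjusted p = 2.51e-09; -3.58 under TPM). LPS took the macrophage libraries to 79.7, 75.9 and 77.6 FPKM, 2.64-fold higher (1.37, SE 0.15, limma adjusted p = 4.79e-06). The osteoclast libraries went to 10.1, 6.06 and 10.4 FPKM, 2.96-fold higher (1.28, SE 0.15, limma adjusted p = 8.48e-05). Under TPM the rises were 0.75 in macrophages and 1.36 in osteoclasts, and under quantile normalization 0.75 and 1.22. The second osteoclast library with LPS was the low one, and it was also low in the macrophage marker Adgre1, which stood at 73.1, 42.5 and 70.9 FPKM in these 3 libraries and at 37.0, 31.2 and 31.3 FPKM in untreated osteoclasts. It was also the lowest of the 3 for Itga4 and Itga5, whose LPS differences without it were 0.66 and 0.64. The part of remaining macrophages in these levels of the osteoclast cultures was not tested. The LPS rise of Itgal in osteoclasts ran from 1.16 to 1.5 when 1 library at a time was left out, and was 1.5 without that second library.

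Among the summed FPKM of these β2 partners, Itgam, Itgax and Itgal took 56.2%, 1.87% and 41.9% in untreated macrophages. In untreated osteoclasts the same genes took 47.3%, 37.9% and 14.8%. With LPS Itgal took 61.1% in macrophages and 35.7% ± 6.44 in osteoclasts, while Itgax took 0.901% and 29.6% ± 5.93 (SD, n = 3). As measured, the β2 partner set of osteoclasts was thus mainly Itgam and Itgax without LPS, with Itgal next to them after LPS. These shares rest on the Itgam level, which is uncertain because 68.7% of its exon bases are shared with Gm49368. The sum of the 6 alpha genes holds the same uncertain level.

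**Figure D3:**
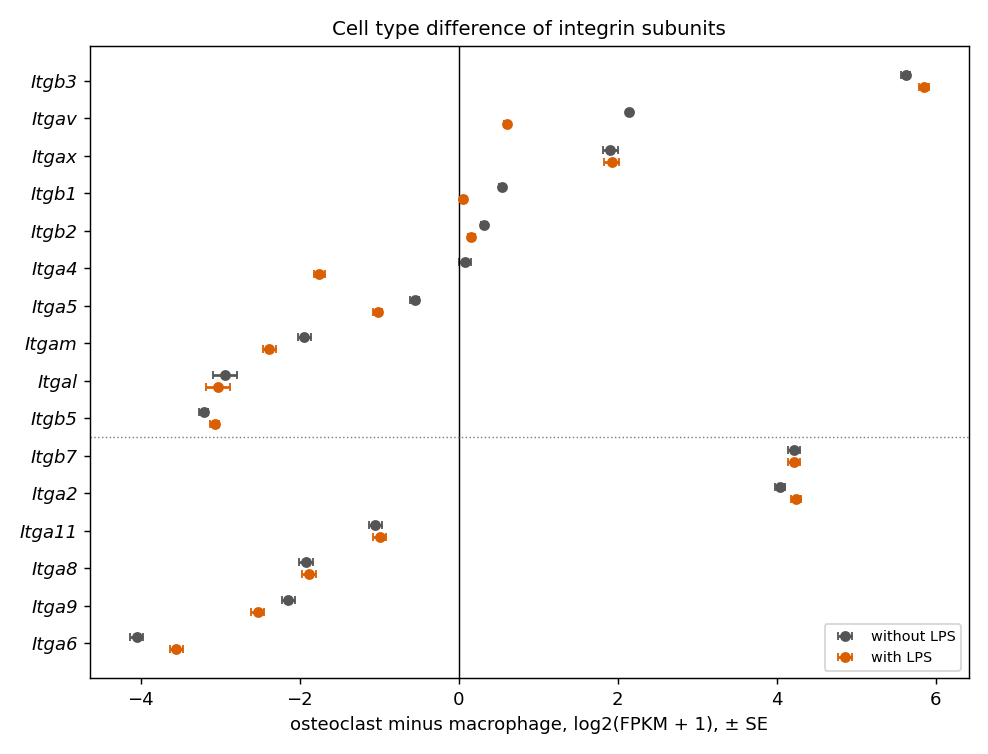
Difference between osteoclasts and macrophages (log2(FPKM + 1), mean ± SE from limma) without and with LPS, for the 10 integrin genes (above the dotted line) and the 6 other integrin genes that were tested (below it). Itgb3 and Itgb5 keep their distance from 0 in both treatments, while Itga4 moves from 0.08 to -1.75 and Itgav from 2.15 to 0.60.

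With LPS the cell types differed by limma at 9 of the 10 genes, 4 higher in osteoclasts (Itgb3, Itgav, Itgax and Itgb2) and 5 lower (Itgb5, Itgal, Itgam, Itga4 and Itga5), with Itgb1 not called. Over all genes tested 83.9% were called, 40.9% higher and 43.0% lower, and 83.6% had libraries that did not overlap. The median of the 10 genes was -0.48, against -0.02 over all genes. This comparison sets other libraries side by side than the untreated one. Both came from the same fit of all 12 libraries with a shared estimate of the spread, so their tests are not independent.

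On the deposited scale LPS changed 9 of the 10 genes in macrophages and 3 in osteoclasts. In macrophages limma called Itga4, Itgav, Itgal, Itga5, Itgb1, Itgam and Itgb2 higher, of which Itgb1, Itgam and Itgb2 turned direction under TPM and quantile normalization. Itgb5 and Itgb3 were called lower, and Itgax was not called. Over all genes tested 69.9% were called in macrophages, 36.8% higher and 33.1% lower, and the libraries did not overlap at 74.0%. The median of the 10 genes was 0.38, against 0.02 over all genes. TPM gave 4 higher and 6 lower, and quantile normalization 4 and 4, so the rises that kept their direction under both scalings were those of Itga4, Itgav, Itgal and Itga5. In osteoclasts Itga4, Itga5 and Itgal were called higher, and the other 7 genes were not called. The share of all genes called in osteoclasts was 17.7%, with 11.1% higher and 6.59% lower, and 34.0% did not overlap. The count of genes called lower there was 0 with limma and with voom on the recovered reads, and 1 (Itgb5) at an unadjusted p under 0.05. Under TPM 1 and under quantile normalization 3 were called lower.

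**Figure D4:**
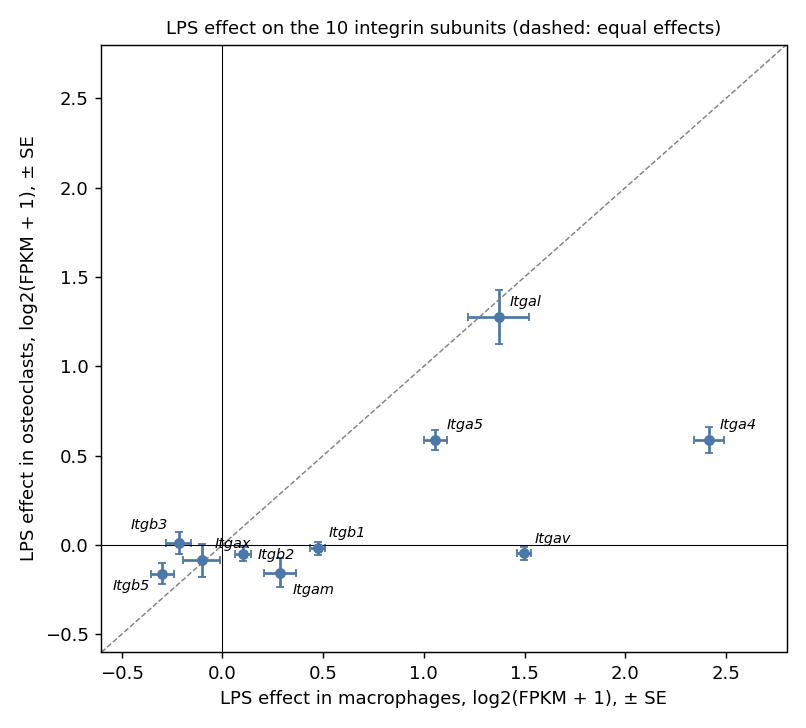
LPS effect on each of the 10 integrin genes in macrophages (x axis) and in osteoclasts (y axis), as log2(FPKM + 1) differences with SE from limma; the dashed line marks equal effects. Itgal lies near the line, and Itga4 (2.42 and 0.59) and Itgav (1.497 and -0.05) lie far below it.

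The macrophage LPS effect was subtracted from the osteoclast one, and this interaction was called by limma at 7 of the 10 genes, 6 lower (Itga4, Itgav and, turning direction under TPM and quantile normalization, Itgb1, Itga5, Itgam and Itgb2) and 1 higher (Itgb3). Over all genes tested 56.6% were called, 26.6% higher and 30.0% lower. The median of the 10 genes was -0.30, against -0.01 over all genes, and TPM moved the all-gene median of the interaction to 0.513. TPM turned the split to 5 higher and 2 lower and quantile normalization to 4 and 2. The interactions of Itga4 and Itgav were the 2 called lower under each scaling (-1.32 and -0.98 under TPM), while those of Itgb1 (-0.49; 0.08 under TPM), Itga5 (-0.47; 0.11), Itgam (-0.44; 0.12) and Itgb2 (-0.15; 0.42) turned direction. The Itgal interaction was not called (-0.09, SE 0.21, limma adjusted p = 0.728), and neither was that of Itgb5 (0.14, adjusted p = 0.182) or Itgax (0.02, adjusted p = 0.924). Under TPM these 3 were called higher (0.62, 0.71 and 0.50). That Itgal interaction turned to 0.10 with a pseudocount of 0.1 and to 0.46 under quantile normalization, and a p above the threshold does not show that the effects were equal. The Itgb3 interaction of 0.23 (SE 0.09, limma adjusted p = 0.0444) rests on macrophage levels near 1 FPKM. Its call was lost in 8 of the 12 fits without 1 library (the first or second untreated macrophage, LPS macrophage or untreated osteoclast library, or the first or the third LPS osteoclast library), with adjusted p up to 0.101. That of Itgb2 (limma adjusted p = 0.0303) was lost in 7, without the first or the third untreated macrophage, the first or second LPS macrophage or any untreated osteoclast library (adjusted p up to 0.0747), and also with no filter (0.056) and with no variance trend (0.0546).

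Of 17 further integrin subunit genes, 6 passed the filter, and limma called each of them between the cell types, beside 77.8% of all genes without LPS and 83.9% with it. Itga2 passed the filter through osteoclasts and Itga8, Itga9 and Itga11 through macrophages, so that a difference between the cell types at these 4 was largely set by the filter, and the count supports nothing. Itgb7 and Itga2 were higher in osteoclasts, and Itga6, Itga9, Itga8 and Itga11 were lower. The first, Itgb7, encodes the β7 partner of α4 and αE. Its level was 0.9501, 1.27 and 0.940 FPKM in untreated macrophages and 35.4, 38.8 and 36.8 FPKM in untreated osteoclasts, 35.1-fold higher (log2 4.21, SE 0.07, limma adjusted p = 2.53e-13). With LPS macrophages stood at 0.997 ± 0.0937 FPKM and osteoclasts at 36.1 ± 2.75 FPKM (SD, n = 3), with no call in either. Among the beta genes measured, Itgb3 and Itgb7 were thus the pair that osteoclasts held at levels more than 30 times those of macrophages. Itga2, the α2 subunit of the collagen receptor α2β1, was near absent from untreated macrophages, with 4, 0 and 0 reads, and stood at 15.2, 15.1 and 16.3 FPKM in untreated osteoclasts. The ratio of scaled reads was 1911 (95% interval 746 to 7015, counting error only). In osteoclasts LPS took Itga2 to 17.2, 19.0 and 20.05 FPKM (0.25, SE 0.06, limma adjusted p = 0.013), a call lost under TPM, under quantile normalization, with a pseudocount of 0.1, with the osteoclast groups fitted alone and in 3 of 12 fits without 1 library (without the first or second untreated or the third LPS osteoclast library, adjusted p up to 0.0541).

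Itga6 encodes α6, a laminin receptor subunit, and was the most abundant of these 6 genes in macrophages. Untreated macrophages held 90.0, 95.7 and 98.9 FPKM and untreated osteoclasts 5.11, 4.30 and 4.99 FPKM, 19.8-fold lower (log2 -4.05, SE 0.08, limma adjusted p = 6.62e-13). LPS lowered it in macrophages to 52.8 ± 4.26 FPKM (-0.84, SE 0.08, limma adjusted p = 1.45e-06; -1.49 under TPM and -1.58 under quantile normalization) and in osteoclasts to 3.597 ± 0.413 FPKM (-0.34, SE 0.08, adjusted p = 0.0131). The osteoclast call was lost with those groups fitted alone (adjusted p = 0.0637) and without the first or the third untreated osteoclast library. Its interaction was 0.50 (SE 0.11, limma adjusted p = 0.00258; 1.22 under quantile normalization). Itga9, the α9 subunit, stood at 5.45 ± 0.528 FPKM in untreated macrophages and 0.462 ± 0.137 FPKM in untreated osteoclasts (a log2 difference of -2.14). Its LPS difference in macrophages was 0.41 (limma adjusted p = 6.57e-04), turning to -0.16 under TPM, and its interaction was -0.39 (adjusted p = 0.0126), turning to 0.17 under TPM. The Itga9 interaction was not called with a pseudocount of 0.1 (limma adjusted p = 0.148) or with voom on the recovered reads (adjusted p = 0.223).

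Itga8 and Itga11, subunits best known from mesenchymal cells, were low in macrophages and nearly absent from osteoclasts. Itga8 was at 3.25 ± 0.435 FPKM in untreated macrophages and 0.118 ± 0.0326 FPKM in untreated osteoclasts (log2 -1.92). Itga11 was at 1.07 ± 0.142 FPKM in untreated macrophages and at 0 reads in the 3 untreated osteoclast libraries, at least 31.8-fold lower against a floor of 3 reads per library. The sum of the 6 stromal markers was 25.3 to 35.3 FPKM in untreated macrophages and 0.211 to 0.321 FPKM in untreated osteoclasts, and was carried by Col1a1 (means 19.9 and 0.0660 FPKM) and Col1a2. Of the other stromal markers Lum was at 0 in all 12 libraries, and Dcn went the other way, at 0 in the macrophage libraries and at 0.130, 0.243 and 0.141 FPKM in untreated osteoclasts. The part of stromal cells in the Itga8 and Itga11 levels was not tested.

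Itgb8, the β8 partner of αv that is known for activating latent TGF-beta, did not pass the filter because 2 libraries reached 1 FPKM. It had 0, 2 and 0 reads in untreated macrophages and 482 reads in the LPS macrophages, at 0.942, 1.16 and 1.02 FPKM. The ratio of scaled reads was 398 (95% interval 109.6 to 3297, counting error only). Untreated osteoclasts had 2, 4 and 2 reads, and LPS osteoclasts had 454 reads, at 0.854, 0.510 and 0.892 FPKM, the second library being the low one as for Itgal and Adgre1. The part of remaining macrophages in that level was not tested. The ratio for osteoclasts was 55.6 (95% interval 28.0 to 129, counting error only). In a fit with no filter limma called both LPS differences, 1.02 in macrophages (SE 0.08, adjusted p = 2.11e-06) and 0.78 in osteoclasts (SE 0.08, adjusted p = 1.87e-04), and did not call the interaction (-0.24, SE 0.11, adjusted p = 0.17). With LPS the means were 0.752 ± 0.210 FPKM in osteoclasts and 1.04 ± 0.109 FPKM in macrophages (SD, n = 3). In the fit with no filter limma called this cell type difference (-0.22, SE 0.08, adjusted p = 0.0413). The remaining 10 genes (Itga1, Itga2b, Itga3, Itga7, Itga10, Itgad, Itgae, Itgb4, Itgb6 and Itgb2l) stayed below 1 FPKM in the mean of each group. Among them Itgae, the αE partner of β7, was at 0.404 ± 0.0479 FPKM in untreated and 0.506 ± 0.1005 FPKM in LPS osteoclasts, and Itga2b, the platelet partner of β3, was at 0.0246 FPKM in untreated osteoclasts.

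**Figure D5:**
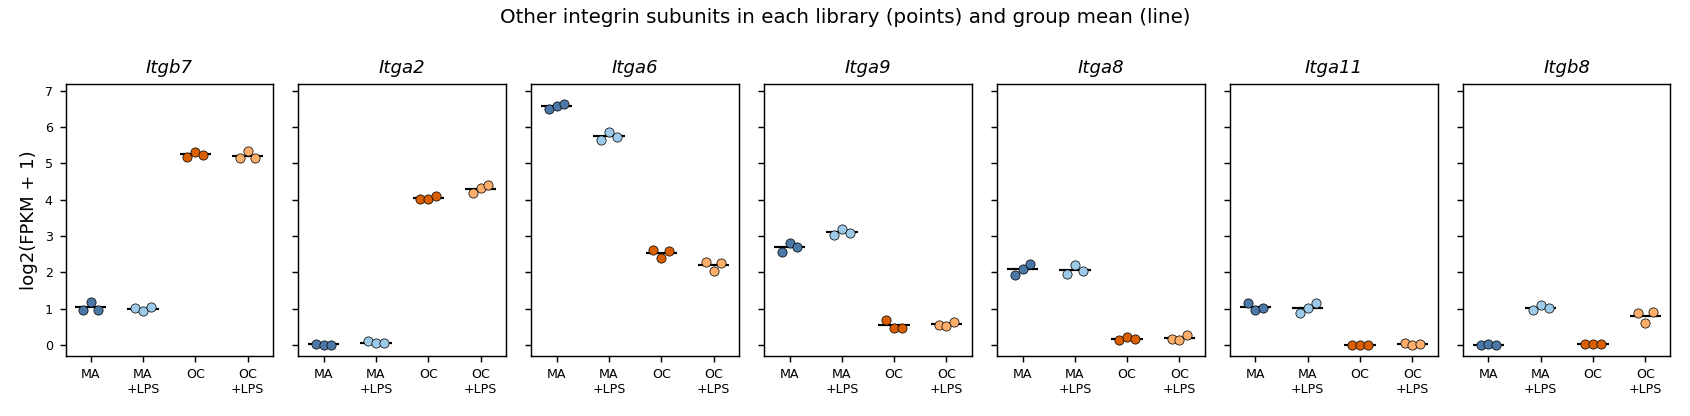
Level (log2(FPKM + 1)) of 7 further integrin subunit genes in each of the 12 libraries, with 1 point per library and a line at the group mean. Itgb7 and Itga2 are higher in osteoclasts than in macrophages, Itga6, Itga9, Itga8 and Itga11 are higher in macrophages than in osteoclasts, and Itgb8 is above 0 in the LPS groups.

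Genes that activate integrins from inside the cell were compared as a list of 17, of which 13 were tested. Untreated osteoclasts were called higher at 4 and lower at 9 (median -0.19, against 0.00 over all genes, of which 77.8% were called). TPM gave 2 higher and 9 lower, and quantile normalization 4 and 9. Tln1, the talin that binds beta tails, stood at 93.1 ± 0.424 and 145 ± 11.7 FPKM in untreated macrophages and osteoclasts (log2 0.63, SE 0.07, limma adjusted p = 2.23e-06), and the adaptor Skap2 at 16.8 ± 0.130 and 30.8 ± 0.483 FPKM (0.84, SE 0.04, adjusted p = 7.26e-10). For Tln1 and Skap2 these differences were 0.22 and 0.45 under TPM, and 0.25 and 0.77 under quantile normalization. Lowest by log2(FPKM + 1) were the adaptor Fyb, at 50.1 ± 2.55 and 5.92 ± 0.543 FPKM (-2.89, SE 0.13, limma adjusted p = 6.98e-10), and the β2 regulator Cyth1, at 32.8 ± 3.11 and 10.1 ± 0.570 FPKM (-1.60, SE 0.07, adjusted p = 3.03e-10). By the ratio of FPKM the kindlin gene Fermt2 was lower still, at 1.65 and 0.104 FPKM, and it passed the filter through macrophages. LPS was called higher at 5 and lower at 1 of the 13 in macrophages, where 69.9% of all genes were called, against 3 and 9 under TPM and 4 and 7 under quantile normalization. The 2 highest by log2(FPKM + 1) were the integrin-associated protein Cd47, which went from 22.0 ± 0.277 to 114 ± 1.73 FPKM (2.33, SE 0.05, limma adjusted p = 8.95e-13), and the GTPase Rap1b, which went from 183 ± 3.02 to 581 ± 7.50 FPKM (1.66, SE 0.03, adjusted p = 7.29e-13). Under TPM these rises were 1.72 and 1.02, and under quantile normalization 1.71 and 0.78. In osteoclasts, where 17.7% of all genes were called, 3 were higher and 10 were not called, with Rap1b at 0.34 (SE 0.03, limma adjusted p = 1.25e-05) and Cd47 at 0.21 (SE 0.05, adjusted p = 0.00688, not called under quantile normalization or with the osteoclast groups fitted alone). The interaction, called at 56.6% of all genes, was called lower at 5 of the 13, including Cd47 (-2.11, SE 0.07, limma adjusted p = 2.09e-10) and Rap1b (-1.32, SE 0.04, adjusted p = 4.04e-10), while TPM called 8 higher and 2 lower.

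Ligands and counter-receptors of integrins formed a list of 20, of which 10 were tested. Untreated osteoclasts were called higher at 4 and lower at 6 of them (median -0.31), beside 77.8% of all genes called. TPM gave 3 higher and 6 lower, and quantile normalization 4 and 5. The osteopontin gene Spp1, a ligand of αvβ3, stood at 655 ± 63.6 FPKM in untreated macrophages and 1714 ± 19.1 FPKM in untreated osteoclasts (log2 1.39, SE 0.06, limma adjusted p = 6.55e-10; 0.68 under quantile normalization), and the αv ligand Mfge8 at 7.71 ± 0.612 and 50.2 ± 2.28 FPKM (2.56, SE 0.07, adjusted p = 1.13e-11). Fibronectin, the α5β1 ligand encoded by Fn1, stood at 28.6 ± 4.44 and 0.0772 ± 0.0515 FPKM (log2 -4.77), and Thbs1 at 45.3 ± 6.39 and 0.238 ± 0.0905 FPKM (log2 -5.22). Both passed the filter through macrophages, so these differences were largely set by it and are a description. The same holds for Icam2, at 1.56 and 0.173 FPKM in untreated macrophages and osteoclasts. The count of 6 lower includes these genes and was thus set in part by the filter. The stromal marker sums given above differ in the same direction as Fn1 and Thbs1, and their part was not tested. In macrophages LPS was called higher at 7 of 10 and not called at 3, beside 69.9% of all genes called, while TPM gave 5 higher and 3 lower and quantile normalization 4 and 3. Icam1, the counter-receptor of the β2 integrins, went from 28.5 ± 0.952 to 691 ± 7.14 FPKM in macrophages (4.55, SE 0.08, limma adjusted p = 3.26e-13; 3.94 under TPM and 3.87 under quantile normalization) and from 6.99 ± 0.563 to 52.0 ± 6.51 FPKM in osteoclasts (2.73, SE 0.08, adjusted p = 1e-09). The complement gene C3, whose cleaved product binds αMβ2 and αXβ2, went from 2.22 ± 0.229 to 92.5 ± 8.12 FPKM in macrophages (4.86, SE 0.14, limma adjusted p = 1.86e-11) and from 6.57 ± 0.478 to 49.5 ± 11.4 FPKM in osteoclasts (2.71, SE 0.14, adjusted p = 6.14e-08). The second LPS osteoclast library, low in Itgal and Adgre1, was also the low one for C3 (53.0, 36.7 and 58.7 FPKM) and Icam1 (57.7, 44.9 and 53.5 FPKM), and the part of remaining macrophages was not tested here either. In osteoclasts 4 of the 10 were called higher and 6 were not called, beside 17.7% of all genes called. The interaction was called lower at 6 and higher at 1, beside 56.6% of all genes, against 4 higher and 5 lower under TPM and 3 and 4 under quantile normalization.

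Kinases and other signalling genes below integrins formed a list of 25, of which 24 were tested. Untreated osteoclasts were called higher at 10 and lower at 11 (median -0.12), beside 77.8% of all genes called, against 9 and 14 under TPM and 10 and 13 under quantile normalization. Parvg and Ptk2 (Ptk2 at 1.98 and 0.754 FPKM in untreated macrophages and osteoclasts) passed the filter through macrophages, and Bcar1 (0.662 and 6.36 FPKM) through osteoclasts. Both counts were thus set in part by the filter. Src, the kinase that acts below αvβ3 and is needed for the osteoclast ruffled border, was at 1.30, 1.05 and 1.35 FPKM in untreated macrophages and at 104, 112 and 110.5 FPKM in untreated osteoclasts, 88.2-fold higher (log2 5.62, SE 0.07, limma adjusted p = 1.05e-14). Dock5, a Rac exchange factor of podosomes, stood at 2.68 ± 0.0282 and 50.1 ± 2.39 FPKM (3.80, SE 0.07, limma adjusted p = 3.49e-13). The parvin gene Parvg stood at 7.47 ± 0.212 and 0.722 ± 0.227 FPKM (log2 -2.31), a description only, since it passed the filter through macrophages. LPS was called higher at 12 and lower at 4 in macrophages, beside 69.9% of all genes called, against 6 and 15 under TPM and 6 and 13 under quantile normalization. Src went to 47.9, 42.6 and 48.0 FPKM in LPS macrophages, 37.5-fold above the untreated ones (4.40, SE 0.07, limma adjusted p = 1.30e-13), and to 120.2, 133 and 119.8 FPKM in LPS osteoclasts, which was not called (0.19, adjusted p = 0.0722). Unlike Itgb3, whose level stayed near 1 FPKM in LPS macrophages, Src thus reached more than 40 FPKM there, and its interaction was -4.21 (SE 0.09, limma adjusted p = 2.31e-11). The lowest called in macrophages on the log2(FPKM + 1) scale were Vav1 (-0.43, SE 0.03, limma adjusted p = 1.24e-07; -1.08 under TPM) and Vcl (-0.30, SE 0.05, adjusted p = 2.60e-04; -0.95 under TPM), and 25.5% of the Vcl exon bases lie under Ap3m1 on the opposite strand.

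In osteoclasts 6 of these 24 were called higher with LPS and 2 lower, beside 17.7% of all genes called, against 3 and 3 under TPM and 2 and 3 under quantile normalization. Bcar1, the p130Cas scaffold, went from 6.36 ± 0.411 to 8.97 ± 0.798 FPKM (0.44, SE 0.08, limma adjusted p = 0.00242). The 2 lower were Cbl (-0.22, SE 0.06, limma adjusted p = 0.0263) and Ptk2b, which encodes Pyk2 (-0.14, SE 0.04, adjusted p = 0.0453). The call of Cbl was lost without the second or the third untreated or the first or the third LPS osteoclast library (adjusted p up to 0.0967), with no filter (0.0565) and with the osteoclast groups fitted alone (0.0814). That of Ptk2b was lost without any of these 4, any untreated macrophage library or the third LPS macrophage library (adjusted p up to 0.151), with no filter (0.0711), with no variance trend (0.0702) and with the osteoclast groups fitted alone (0.0834). The interaction was called higher at 3 and lower at 11, beside 56.6% of all genes, against 14 and 5 under TPM and 12 and 8 under quantile normalization.

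The genes with the most similar profiles were sought for Itgb3, Itgb2 and Itgax, by the Euclidean distance between log2(FPKM + 1) values centred on each gene's mean over the 12 libraries. For Itgb3 they were Spns2 (distance 0.54), Bdh1 (0.74) and Msln (0.88), whose mean levels in untreated macrophages and osteoclasts were 0.0565 and 48.9, 0.146 and 77.6, and 0 and 36.2 FPKM. For Itgb2 they were Abhd13 (0.11), Psap (0.15) and Sgpl1 (0.15), with nearly flat levels as for Itgb2 itself. For Itgax they included Whrn and Esrp2, each at a distance of 0.36 and with means of 3.06 and 2.76 FPKM in untreated osteoclasts. The 12 libraries share the cell types and the LPS treatment, so these distances describe the 4 group levels more than any finer likeness.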

How the data were processed

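The authors deposited FPKM values for 54532 Ensembl genes in 12 libraries. The submitters' processing notes name fastp, STAR, featureCounts, DESeq2 and mm10, and versions, annotation and use of strand are not given in the sources used here. FPKM of 25820 of the 25854 genes above 0 (99.87%) came out as whole reads (tolerance 0.02) once divided by a gene's smallest step. The lengths these imply matched merged exons of GENCODE M21 on GRCm38 for 96.75% of genes, so positions are on that build. Library denominators equalled median-of-ratios size factors, so a change is relative to the typical gene.

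Log2(FPKM + 1) of the 11335 genes with at least 1 FPKM in 3 libraries was fitted by limma (version 3.58.1, R version 4.3.3) as 4 group means with 5 contrasts and a variance trend in eBayes. Tests were two-sided, with Benjamini-Hochberg adjustment over the genes tested and calls under 0.05. This scale understates changes of low genes. Folds are ratios of mean FPKM. In simulated data for the LPS effect in macrophages (10776 genes) the fit recovered 64.3% of 1.5-fold, 98.4% of 2-fold and 100% of 4-fold changes, and 3.95% of its calls were false. Only 70, 61 and 65 tested genes were changed by these folds, in both directions, all with ample reads and an assumed spread between libraries. In the data 69.9% of all genes were called for this effect. The simulation held no shift of scale, so 3.95% is not the error rate of the calls given here.

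The text names all 10 integrin genes, other subunits with a group mean of at least 1 FPKM, the 2 highest and 2 lowest called genes of each list whose libraries did not overlap (for the untreated cell types and each LPS effect), the 3 nearest profiles of 3 genes, and markers. A few genes that this rule names are not reported here. Members and lists were chosen with earlier results of these data known. Intervals and floors cover counting error only. Promoter windows from RefSeq were at hand for 7 of the 10 genes, and 2 are shown. Alternatives tried were TPM scaling, omission of the filter, a minimum mean of 5 FPKM, a pseudocount of 0.1, quantile normalization, the groups compared alone, a replicate block, no variance trend, voom on the recovered reads and each library left out.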

Additional observations from a re-analysis of the deposited data

Results flagged for a closer look

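The LPS effect differed between osteoclasts and macrophages, by the interaction in limma, at 9 of the 16 integrin genes tested. The osteoclast effect was the lower one for Itga4 (-1.83 on the log2(FPKM + 1) scale), Itgav (-1.54), Itgb1 (-0.49), Itga5 (-0.47), Itgam (-0.44), Itga9 (-0.39) and Itgb2 (-0.15), and the higher one for Itga6 (0.50) and Itgb3 (0.23). Of all genes tested, 56.6% were called in the interaction, so this count is close to that of the whole table. For Itga4 and Itgav the value kept its sign under TPM and quantile normalization, whereas for Itgb1, Itga5, Itgam and Itgb2 it turned under both. The value of Itga9 turned under TPM, and its call was lost with a pseudocount of 0.1 and with voom. The call of Itgb3 was lost with no filter, quantile normalization, no variance trend and voom, among others, and in 8 of the 12 fits without 1 library, and that of Itgb2 in 7. Itga6 kept its sign and call under the alternatives run.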

How the results depend on the processing

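Of the 37 differences called at the 10 integrin genes over the 5 contrasts, 27 kept their direction and call under every alternative run. Over all alternatives the 50 differences gave 1035 values, of which 960 kept direction and side of the threshold, 35 turned direction, 29 lost a call and 11 gained one.

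TPM and quantile normalization accounted for most turns. For LPS in macrophages they gave 4 and 4 members higher (7 before) and 6 and 4 lower (2 before), with Itgb1 at -0.17 and -0.38, Itgb2 at -0.54 and -0.74 and Itgam at -0.35 and -0.33; Itgax was 0.02 under quantile normalization and Itga9 -0.16 under TPM. For LPS in osteoclasts 1 and 3 members were called lower (0 before; 1 without the first LPS macrophage library, and 0 to 1 over the fits without 1 library), and Itgb3 went to -0.06 and -0.09. For the untreated cell types Itgb2 went to -0.10 and -0.03, and Itga4 to -0.32 under TPM. For the interaction 5 and 4 members were called higher (1 before) and 2 and 2 lower (6 before; 5 to 6 without 1 library), with Itgb1 at 0.08 and 0.25, Itgb2 at 0.42 and 0.53, Itgam at 0.12 and 0.11, Itga5 at 0.11 and 0.24, Itgal at 0.62 and 0.46, Itgax at -0.16 under quantile normalization and Itga9 at 0.17 under TPM. The cause of these turns was not tested.

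Without 1 library Itgb3 in osteoclasts ran from -0.02 to 0.05, Itgb1 there from -0.04 to 0.01, and the interactions of Itgax from -0.06 to 0.11 and of Itgal from -0.22 to 0.13. The Itgal interaction was also 0.10 with a pseudocount of 0.1 and 0.14 with voom. The call of Itgb3 as the member higher in the interaction was lost (0 members) with no filter, with no variance trend, with voom and in 8 of 12 fits without 1 library (0 to 1).

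Same-numbered libraries correlated at -0.07 to 0.104 after removal of group means, over 0.1 in 1 of 18 pairs, and 14 of 36 comparisons had the own number as best, so the numbers were not taken as pairs. With the replicate block 0 members were called higher in the interaction (Itgb3, adjusted p = 0.0653), and the other counts of members stayed as they were, while among the other genes named Ptk2b lost its call in osteoclasts (adjusted p = 0.0635).

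A mean of at least 5 FPKM tested fewer genes and called 5427 (8822 before) between the untreated cell types, 5694 (9509) with LPS, 4851 (7921) for LPS in macrophages and 4018 (6413) for the interaction. Quantile normalization moved shares by more than 1 SD. In untreated and LPS macrophages Itgb3 took 0.134% and 0.192% of the beta sum and 0.510% and 0.995% of Itgb3 plus Itgb5, and of the β2 partners Itgam took 57.6% and 39.0%, Itgax 1.34% and 1.17% and Itgal 41.0% and 59.8%. Of the alpha sum Itgav took 70.2% in untreated osteoclasts, and Itga5 19.6% there and 41.7% in untreated macrophages. Depth limits Itgb3 and Itgax in macrophages, with 204 to 459 reads in each group of 3 libraries.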
